A study of Mus musculus with 6 samples.

Results

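Among the places that V5-tagged Bapx1 occupied in mouse NIH3T3 fibroblasts, 3014 lay far from any gene start and held the Bapx1 motif more than once. They were chosen by a rule applied to the deposited NIH3T3 peak list, which kept autosomal peaks whose summit lay more than 25 kb from the start of any annotated transcript and had T(G/A)AGTG at 2 or more positions, counting both strands, no farther than 50 bp from that summit in mm9. The list held 22958 autosomal peaks, of which 10533 were distal by this distance. The 3014 peaks made up 28.6% of the distal peaks and 13.1% of all autosomal ones. The other distal peaks served as the comparison, with 4562 holding 1 match and 2957 holding none.

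Bapx1, also named Nkx3-2, is a homeobox transcription factor of the NK family. It is known from the sclerotome, the part of the somite that forms the vertebral column, where it acts in the steps that lead to cartilage, and its loss leaves parts of the axial skeleton malformed or absent. Proteins of the NK family read short DNA sites with AAGTG at their core rather than the TAATTA core that many other homeodomains prefer. Sites far from gene starts include enhancers, which can act on genes over long distances.

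The NIH3T3 data were a pair of libraries, both labelled as precipitated with an antibody to the V5 tag. The V5-Bapx1 library came from cells that overexpressed V5-tagged Bapx1. Its control is described in the labels both as cells with the empty pcDNA6 vector and as wild type cells, and its title calls it input, so what the folds and tag ratios below are relative to is not fully settled. The embryo libraries came from the vertebral column of CD1 embryos at E12.5. In the Bapx1_VC embryos the endogenous protein carried an S-peptide tag and was precipitated through it, and the control was the same S-peptide precipitation from wildtype embryos. NIH3T3 is an immortalised embryonic fibroblast line, so neither its chromatin nor the level of an overexpressed factor is that of the sclerotome. Each condition had a single library, so no difference between conditions has a replicate check, and all intervals and Fisher tests cover counting error in these libraries only. The V5-Bapx1 and V5 control libraries held 8905520 and 12456861 tags after removal of repeats at one position and strand. The embryo Bapx1 and wildtype libraries held 24855032 and 20704235.

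The motif has 2 written forms, TAAGTG (the A form) and TGAGTG (the G form), and reads CACTTA or CACTCA on the other strand. Several of the peaks with the smallest p-values were tandem arrays of the A form, while others mixed forms or strands, and 4 of the arrays are printed to show how the copies repeat. Each is the summit with 50 bp on either side, on the plus strand of mm9, with the matches in capitals. The Akap12 array lies at chr10:6031557-6031657 in an intron of Akap12, which encodes a kinase scaffold. The Fat3 array lies at chr9:15922226-15922326 in an intron of Fat3, a large protocadherin. The Rcan2 array lies between genes at chr17:43892736-43892836, and the Prr5 array between genes at chr15:84454422-84454522.
Akap12: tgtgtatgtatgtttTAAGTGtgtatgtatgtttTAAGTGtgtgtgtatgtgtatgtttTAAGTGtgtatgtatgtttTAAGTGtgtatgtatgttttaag
Fat3: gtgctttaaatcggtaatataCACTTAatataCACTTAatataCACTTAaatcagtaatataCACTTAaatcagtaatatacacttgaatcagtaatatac
Rcan2: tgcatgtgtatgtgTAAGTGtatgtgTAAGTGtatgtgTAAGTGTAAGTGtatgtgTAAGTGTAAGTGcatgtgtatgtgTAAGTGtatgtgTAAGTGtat
Prr5: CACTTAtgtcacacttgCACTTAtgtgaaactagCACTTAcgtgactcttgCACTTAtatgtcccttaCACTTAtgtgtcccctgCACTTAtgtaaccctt

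Most of the 3014 peaks, 2337 of them, held exactly 2 matches. The examples below are the strongest by p at the commonest distance within each orientation of the pair, again on the plus strand, from 5 bases before the first match to 5 bases after the last. At Mfsd1 (chr3:67415937-67415963) and Smc5 (chr19:23319469-23319495) the copies point the same way and start 11 bp apart. At Cdh18 (chr15:21905111-21905130) they point away from each other and share their middle bases, which makes a palindrome. At Foxb2 (chr19:16913046-16913068) they point towards each other across 1 base.
Mfsd1: aatttTAAGTGgttatTAAGTGgcttt
Smc5: aaaagCACTTAacagcCACTTAacata
Cdh18: aggagCACTTAAGTGcttaa
Foxb2: tacttTAAGTGgCACTTAatggg

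Arrays of the G form were also among the 3014, and one of the peaks with the most matches is given for contrast with the A form arrays above. The Psapl1 peak at chr5:36452378-36452470, in an intron of Sorcs2, held 11 matches, all of the G form.
Psapl1: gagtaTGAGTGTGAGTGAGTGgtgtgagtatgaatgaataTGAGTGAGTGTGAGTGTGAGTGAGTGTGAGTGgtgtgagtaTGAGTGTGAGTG

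The number of matches per peak was mostly small. Of the 3014 peaks, 2337 held 2 matches, 446 held 3, 125 held 4 and 106 held 5 or more. The share of peaks with at least 2 matches was 28.6% (95% exact binomial interval 27.8 to 29.5) at distal summits and 21.6% (20.8 to 22.3) at summits within 25 kb of a start. At equally long windows centred 500 bp from the distal summits it was 1.06% (0.92 to 1.21). The summit lay between the outer edges of the first and last match in 66.7% of the 3014, and the midpoint of the matches was within 20 bp of the summit in 81.1%. The rule keeps only matches within 50 bp of the summit, which by itself raises both shares. The shares for matches placed at random in such windows were not worked out.

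The A form prevailed. It made up 75.6% of the 7200 matches at the 3014 peaks and 89.2% of the matches at distal peaks with 1 match, against 43.2% in the windows 500 bp away. In the self-similar windows of the 3014, which are defined below, it made up 34.6% of 890 matches. In their other windows it made up 81.3% of 6310. Of the 2337 peaks with exactly 2 matches, 1750 had the A form at both, 533 had 1 of each and 54 had the G form at both. The bases beside the A form also differed from those in the windows 500 bp away. With self-similar windows left out of every set, T stood directly before it in 51.4% of 5133 matches, against 31.6% of 1091 in the windows 500 bp away. A directly after it was found in 16.8%, against 28.6%. At distal peaks with a single match both differences were larger, with T before in 62.8% and A after in 11.6% of 4055 matches.

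Peak strength is described here without a test, since the same V5-Bapx1 and control tags called the peaks. The deposited fold enrichment over the control had a median of 12.7 without a match, 15.2 with 1 match and 16.8 over the 3014 peaks. Its median was 16.1 with 2 matches, 18.3 with 3, 15.8 with 4 and 18.99 with 5 or more. The share of peaks with a deposited p of at most 1e-10 was 13.9% without a match, 21.6% with 1 and 35.9% among the 3014. Within 200 bp of the summits, the 3014 peaks held 49843 V5-Bapx1 tags and 8165 V5 control tags. After scaling to the library totals this was a ratio of 8.54 (8.34 to 8.74), against 7.58 (7.43 to 7.73) with 1 match and 6.96 (6.79 to 7.13) with none. The quartiles of the deposited fold overlapped between all these classes.

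Strength also differed with the form of the motif. With exactly 2 matches, the tag ratio was 8.65 (8.38 to 8.93) where both were the A form, 7.15 (6.74 to 7.57) with 1 of each and 6.91 (5.81 to 8.26) where both were the G form. Deposited fold was at least 20 at 34.9%, 16.5% and 9.26% of these peaks. With a single match the ratio was 7.70 (7.54 to 7.86) for the A form and 6.65 (6.26 to 7.05) for the G form. The 41 peaks with 4 or more copies of the A form stood above the other classes. Their median fold was 34.9 (quartiles 19.5 and 55.9) and their tag ratio 18.02 (15.2 to 21.4). The arrays printed for Akap12, Fat3, Rcan2 and Prr5 are among them. Values for this class without self-similar windows, which are defined below, were not worked out.

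**Figure D1:**
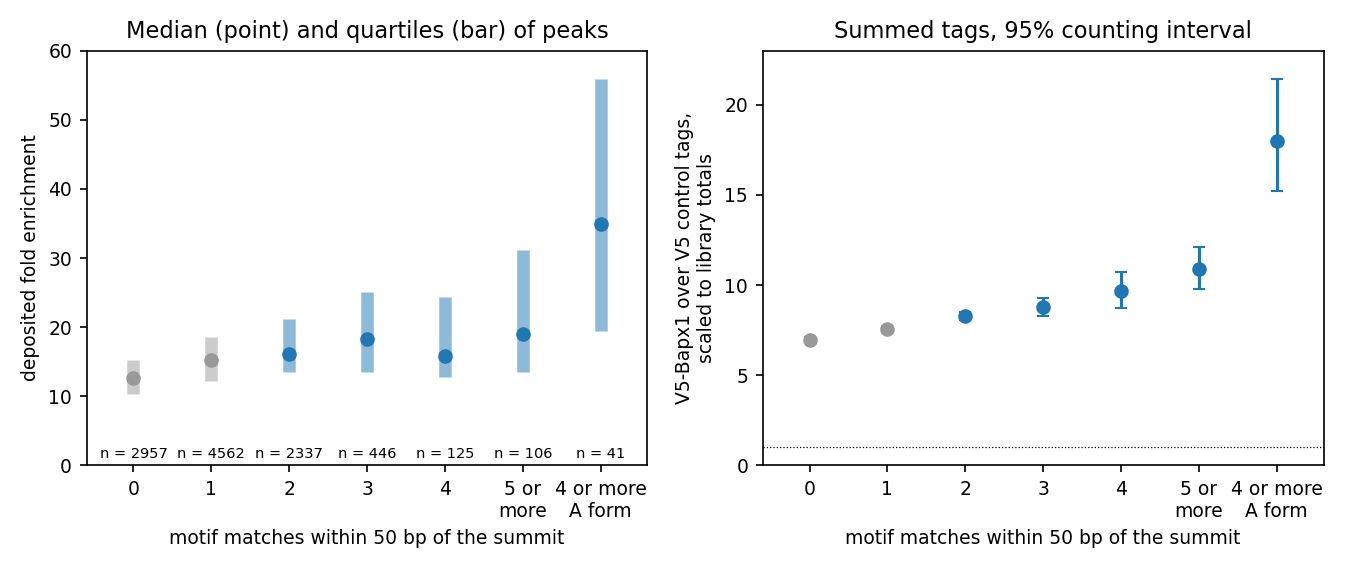
Strength of distal NIH3T3 peaks by the number of motif matches within 50 bp of the summit, as the deposited fold enrichment (left, median as a point and quartiles as a bar) and as V5-Bapx1 over V5 control tags within 200 bp, scaled to library totals (right, with 95% counting intervals). The A form is TAAGTG, and the last class of 41 peaks, a subset of the classes with 4 and with 5 or more matches, has a median fold of 34.9 against 12.7 without a match.

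Some windows repeated themselves. A window was called self-similar when at least 60% of its bases equalled those at some fixed shift between 4 and 33 bp. This held for 189 of the 3014 windows (6.27%), for 1.39% of those without a match, for 0.46% of those with 1 match and for 2.94% of windows 500 bp from the 3014 summits. It held for 27 of the 100 peaks with the smallest p and for 11 of the first 20. Of the 189, the 86 with 2 or more A forms had a tag ratio of 12.3 (10.95 to 13.9) and a median fold of 22.01, while the 103 with at most 1 A form had a ratio of 7.28 (6.52 to 8.14) and a median fold of 13.3. Per the study's methods only reads with a single place in the genome were kept, and how much of these windows such reads can cover was not tested. Without the self-similar windows 2825 peaks remained, with a tag ratio of 8.45.

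The 10 peaks with the smallest p show the range of arrangements. At Akap12 the peak held 171 deposited tags at a fold of 98.4, with 126 V5-Bapx1 tags and 5 control tags within 200 bp of the summit. At Fat3 it held 142 tags at a fold of 144, the largest among the 3014, and 138 against 5 within 200 bp. The Rcan2 peak, 46014 bp upstream of this calcineurin regulator, had 8 A forms, 116 V5-Bapx1 tags and 5 control tags. These 3 windows were 65.9 to 89.2% identical to themselves at a shift of 18 or 19 bp.

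The Agtpbp1 peak, 208545 bp from the nearest start of any transcript of this tubulin deglutamylase gene, had 5 matches and 127 tags against 5. The Ptprm peak lay in an intron of this receptor tyrosine phosphatase and had 4 A forms with 99 tags against 2. At Prr5, a subunit of the mTORC2 kinase complex, 6 A forms followed each other every 17 bp, with 112 tags against 6. The Lrriq3 peak had 5 A forms and 120 tags against 9.

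The Cxcr7 peak, 143939 bp from the nearest start of any transcript of this chemokine receptor gene, had 5 matches on both strands, 106 tags against 12, and no self-similarity above 36.3%. The Fam170a peak, on chromosome 18, had 4 matches on the same strand, 126 tags against 10, and no self-similarity above 43.2%. The Cntn5 peak, in an intron of this neural adhesion gene, held 527 deposited tags but at a fold of only 28.7, with 186 V5-Bapx1 tags against 22 control tags. The p-values were called against this same control, so a control count low beside the V5-Bapx1 count follows from choosing these 10. The control count was highest at Cntn5. In the embryo, 3 of the 10 had at least 10 Bapx1 tags within 200 bp and 2 times the scaled wildtype level, a limit met by 4.95% of all autosomal NIH3T3 peaks and 3.72% of the 3014, with 25 against 8 at Rcan2, 14 against 4 at Ptprm and 12 against 4 at Fam170a.

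**Figure D2:**
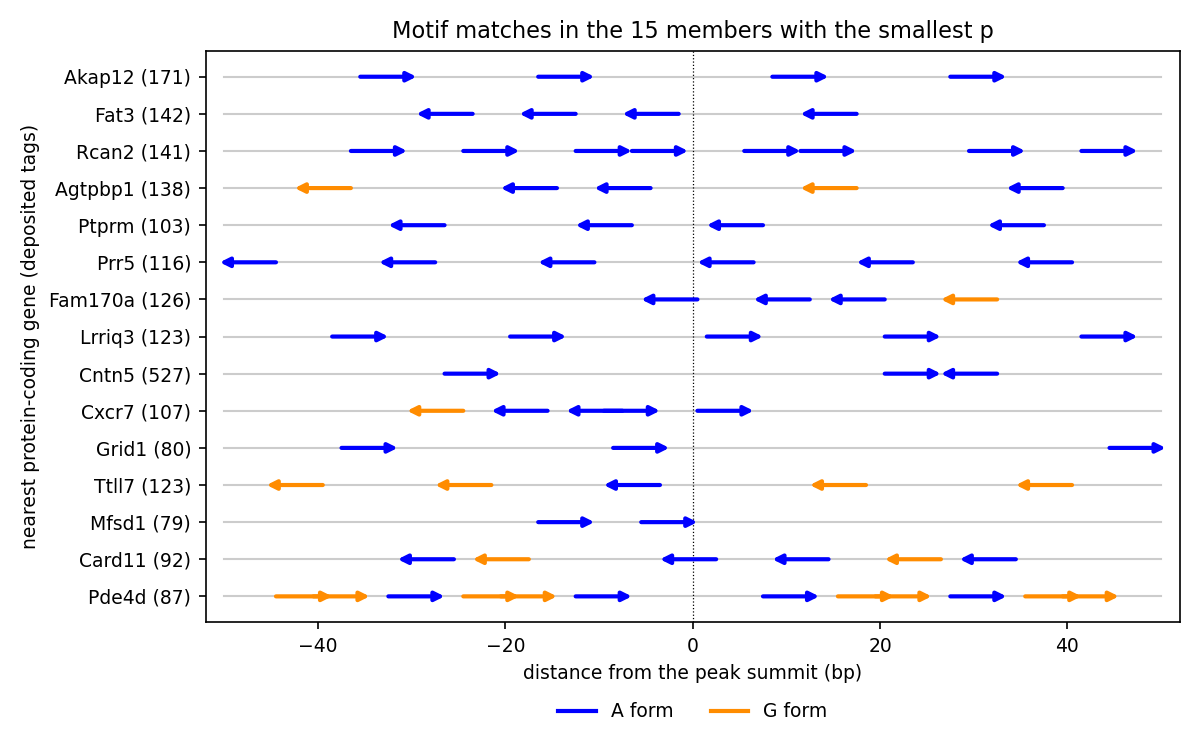
Positions of the motif matches (arrows, pointing along the motif, blue for the A form TAAGTG and orange for the G form TGAGTG) within 50 bp of the summit in the 15 peaks with the smallest p, named by the nearest protein-coding gene with the deposited tag count. Prr5 has 6 matches at even steps, and Mfsd1 has 2 matches 11 bp apart.

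Cntn5 lies in a stretch of chromosome 9 where both NIH3T3 libraries were deep. Between 8000001 and 11000000 the V5 control held 29733 tags per Mb, 6.06 times its autosomal mean, and V5-Bapx1 held 7.495 times its own mean. The embryo libraries held 0.88 and 0.89 times theirs there. This stretch had 21 of the 3014 peaks, the most of any 3 Mb window stepped along the autosomes by 1 Mb, with a median of 98 deposited tags but a median fold of 8.94. Their tag ratio was 4.78 (4.30 to 5.32), against 8.76 (8.55 to 8.98) for the other 2993. The peak with the most tags of all, 767 at Arhgap42, was one of the 21, and its V5 control count within 200 bp was 27. The stretch held 109 distal peaks in all, and the tag ratios with 1 match and with none were not worked out without it. Tag number and peak density in this stretch cannot be told apart from the amount of DNA it gave to both NIH3T3 libraries, and the copy number itself was not tested.

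At peaks with exactly 2 matches some spacings were commoner than others. In 1246 of the 2337 (53.3%) both copies pointed the same way, in 580 (24.8%) away from each other and in 511 (21.9%) towards each other. Among 361 windows with exactly 2 matches 500 bp from any autosomal NIH3T3 summit the shares were 62.9%, 19.9% and 17.2%. Distances are given between the starts of the 2 matches. Same-strand pairs were most often 11 bp apart (137 of 1246, with an interval from 9.31 to 12.9%), and 10 bp came next with 75. Together 10 and 11 bp took 17.01% (14.97 to 19.2) of same-strand pairs, against 5.73% (3.08 to 9.59) in the windows 500 bp away.

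A second, lower rise lay at 20 to 22 bp, again with 137 of 1246 same-strand pairs (9.31 to 12.9%) against 5.29% (2.76 to 9.05). Very close same-strand pairs, 4 to 7 bp apart, were fewer at the summits, with 2.81% against 21.1%. Most of this gap lay at exactly 4 bp, with 13 pairs (1.04%) against 39 (17.2%). At 6 bp the shares were 0.32% against 2.20%, and at 7 bp 1.44% against 1.76%. Same-strand copies 4 bp apart overlap in the bases TG, so the second copy is always the G form. The A form made up 75.6% of matches at the peaks selected by the rule, against 43.2% in windows 500 bp from distal summits. How much of the gap follows the forms was not tested. The 10 and 11 bp distances and those of 20 to 22 bp were singled out after the counts were seen, and no test was made on them. Same-strand pairs 35 bp or more apart took 24.7% at the summits, against 36.6% in the windows 500 bp away. Outside self-similar windows, 59.7% of matches at the peaks lay within 20 bp of the summit. How much of the spacing shares follows from matches lying near the summit was not tested. The 137 stretches at 11 bp, read with 5 bases on either side, were all different, and their 5-base spacers took 120 different sequences with none more than 3 times. The share at 10 and 11 bp was 17.1% without self-similar windows and 22.2% among peaks with a p of at most 1e-10.

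Pairs in the other orientations had their own common distances. Pairs pointing towards each other were most often 7 or 8 bp apart, with 43 (8.41%) and 40 (7.83%) of 511 pairs, against 6.45% and 1.61% of 62 pairs in the windows 500 bp away. Those at 8 bp had a median fold of 20.3, and those at 7 bp, as at Foxb2, 15.2. Pairs pointing away from each other were most often 4 bp apart, the palindrome printed for Cdh18, with 48 of 580 pairs (8.28%), which was close to the 9.72% in the windows 500 bp away. The 212 same-strand pairs at 10 or 11 bp had a median fold of 18.3 against 16.1 for all peaks with 2 matches and 15.2 for the 308 same-strand pairs 35 bp or more apart. Their tag ratio was 8.29 (7.63 to 9.03), beside 8.26 (8.04 to 8.49) for all peaks with 2 matches.

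The strongest 11 bp pairs by p were the printed ones. Mfsd1 had 76 V5-Bapx1 tags against 3 in the control within 200 bp, at a deposited fold of 113. Smc5, a gene for DNA repair and chromosome structure, had 78 against 7, at a fold of 65.0.

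**Figure D3:**
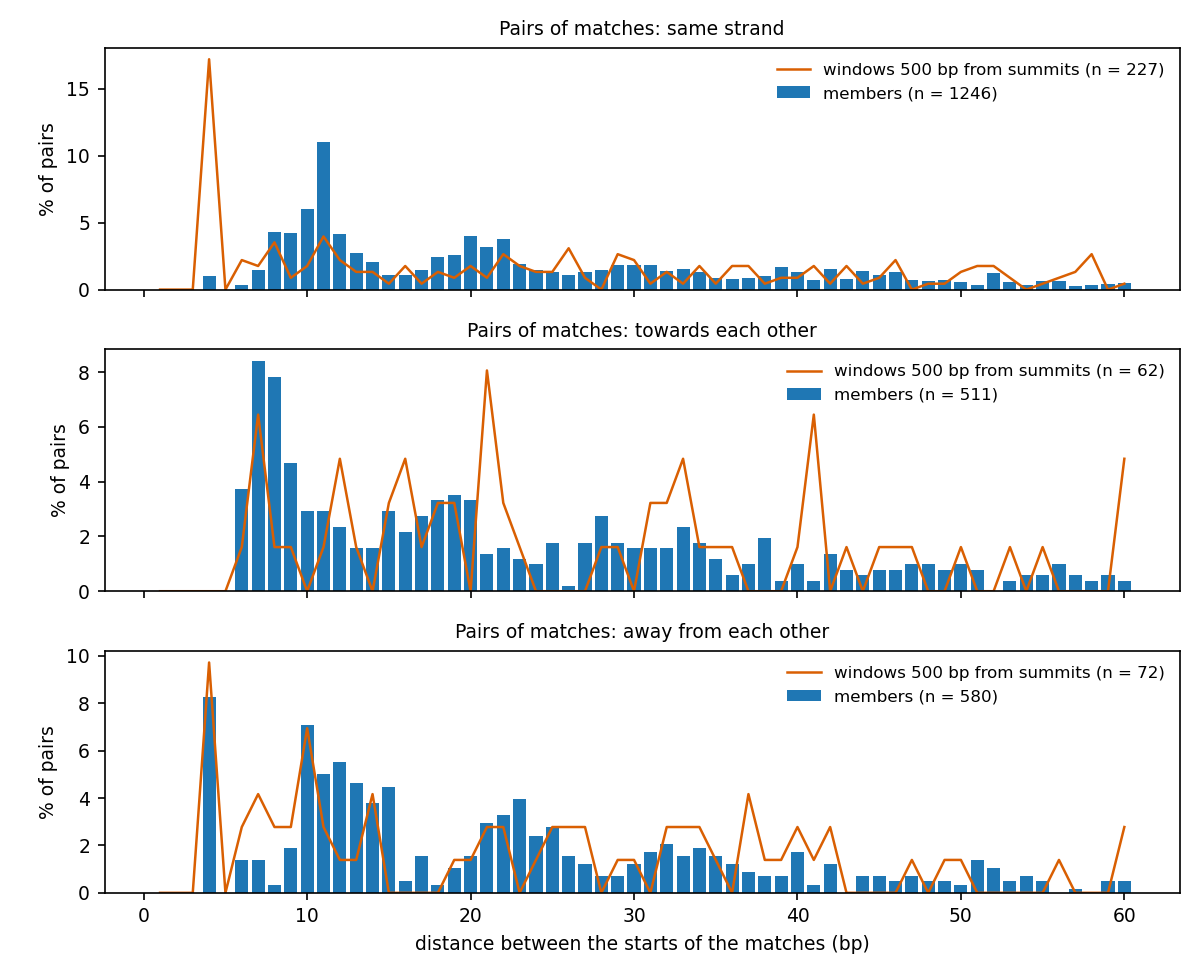
Distance between the starts of the 2 matches at peaks with exactly 2 (blue bars, % of pairs in each orientation) and in windows 500 bp from autosomal NIH3T3 summits with exactly 2 matches (orange line). Same-strand pairs rise at 11 bp, to 137 of 1246 pairs, and again near 20 to 22 bp. Their orange line peaks at 4 bp, where the second copy is always the G form.

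Embryo Bapx1 tags bear on the 3014 sites independently of the rule. An embryo Bapx1 peak overlapped 13 of the 3014 (0.431%, exact interval 0.230 to 0.736), against 12 of 2957 without a match (0.406%) and 11 of 4562 with 1 match (0.241%). Over all 22958 autosomal NIH3T3 peaks the share was 0.784%. Neither difference passed Fisher's exact test (two-sided, Benjamini-Hochberg adjusted p = 1.0 and 0.418). Within 200 bp of the summits the embryo held 16262 Bapx1 tags and 12234 wildtype tags, a scaled ratio of 1.11 (1.08 to 1.13). It was 1.11 (1.08 to 1.13) without a match and 1.10 (1.08 to 1.12) with 1 match, and Fisher's exact test on the tags gave an adjusted p of 0.953 for both comparisons.

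At single sites, 112 of the 3014 (3.72%) had at least 10 embryo Bapx1 tags and 2 times the scaled wildtype level, against 4.95% of all autosomal NIH3T3 peaks, 4.46% of distal peaks without a match, 2.30% of those with 1 match and 3.31% of all distal peaks. The median site had 5 embryo Bapx1 tags and 4 wildtype tags within 200 bp, so a modest occupancy at a single site was not detectable at this depth.

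**Figure D4:**
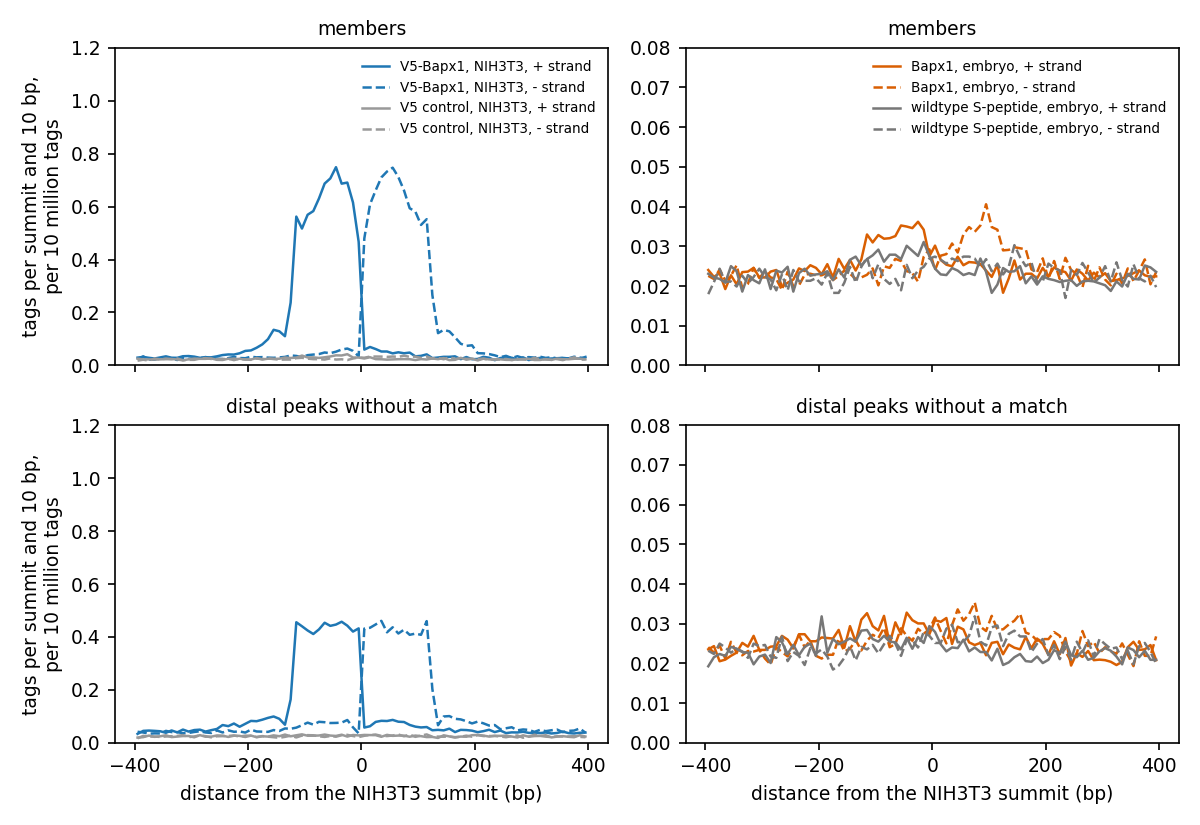
Tag 5' ends in 10 bp bins around the NIH3T3 summits of the 3014 peaks (top) and of distal peaks without a match (bottom), per summit and scaled to the same library total, for the NIH3T3 libraries (left) and the embryo libraries (right, on a finer scale). V5-Bapx1 tags of the plus strand peak 45 bp before the 3014 summits and those of the minus strand 55 bp after them, at 0.75, while embryo Bapx1 tags reach 0.04.

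Of the 13 peaks overlapped in the embryo, 10 had their summit within 100 bp of the embryo summit, 4 were self-similar windows and 10 had at least 2 times the scaled wildtype level within 200 bp. The deposited false discovery rates of the 13 embryo peaks ran from 19.7 to 71.2%, with a median of 67.3%, beside 61.1% over the 2801 autosomal embryo peaks. The strongest in the embryo, and the one with the lowest rate, lay in an intron of Ror1, a receptor tyrosine kinase for Wnt5a, with Ube2u as the nearest protein-coding start. It had 50 embryo Bapx1 tags against 4 in wildtype, but only 12 V5-Bapx1 tags against 4 in NIH3T3.

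An intron of Xrcc4, a DNA end-joining gene, had 27 embryo tags against 3. A site nearest to Pdgfc, a platelet-derived growth factor ligand, had 26 against 6. A site 236980 bp upstream of Sox4, an HMG-box factor of progenitor cells, had 28 against 7.

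A further 8 were nearest to Mocs1, G930045G22Rik, Lass6, Tiam2, Wac, Atp5g3, F830045P16Rik and Arhgap42. Their embryo counts ran from 5 at Arhgap42, where the embryo summit lay 1917 bp away, to 25 at Mocs1. In NIH3T3 the 13 had deposited folds from 7.66 at Tiam2 to 25.4 at Xrcc4, beside a median of 16.8 over the 3014 peaks.

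The sequences of 3 of these are shown for the lie of the copies, which point the same way in the Ror1 intron and at Xrcc4 and away from each other at Pdgfc. They are given on the plus strand with 5 bases on either side of the matches, from chr4:100007934-100007978 (Ror1 intron), chr13:90179274-90179317 (Xrcc4) and chr3:81032318-81032345 (Pdgfc).
Ror1 intron: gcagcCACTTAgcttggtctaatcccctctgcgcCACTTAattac
Xrcc4: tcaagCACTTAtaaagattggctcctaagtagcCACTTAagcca
Pdgfc: gatggCACTTAaggaaaTAAGTGcagca

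Motifs of other factors were rarer at the 3014 peaks than at distal peaks without a match. Of 12 motifs searched on both strands in the same windows, not counting any that shared a base with a Bapx1 match, 10 were less frequent by Fisher's exact test, and the SOX and ETS motifs did not pass it. With windows reaching 100 bp from the summit the ETS motif passed as well (Fisher's exact test, adjusted p = 0.0182). Counting those that shared a base with a Bapx1 match too, 10 passed as well. None of the differences from peaks without a match grew. Those of the homeobox core (-3.11 percentage points, from -4.67) and RUNX (-2.10, from -2.96) shrank most. With 2 or more Bapx1 matches, the windows of the 3014 have less sequence left for another motif than windows without a match. The part of this in the differences was not tested. The largest gap was at the AP-1 motif TGANTCA, which Fos and Jun factors bind. It stood in 82 of 3014 windows (2.72%, interval 2.17 to 3.37) against 13.9% (12.6 to 15.2) without a match (Fisher's exact test, adjusted p = 7.04e-58), 4.65% with 1 match (adjusted p = 5.12e-05) and 2.99% in windows 500 bp from the 3014 summits. The homeobox core TAATTA stood in 7.20% (6.30 to 8.18), against 11.9% without a match (Fisher's exact test, adjusted p = 4.47e-09) and 11.97% with 1 match (adjusted p = 8.68e-11), but only 4.51% in the windows 500 bp away.

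The other motifs lay closer together. The E-box CAGCTG was found at 1.43% against 4.29% without a match (Fisher's exact test, adjusted p = 1.16e-10). The NFI motif TTGGCA was found at 3.35% against 6.53%, the RUNX motif TGTGGT at 4.45% against 7.41% and the TEAD motif GGAATG at 3.48% against 5.99%. The PBX-HOX motif TGATTNAT was found at 2.09% against 4.26%, and the MEIS motif TGACAG at 4.38% against 6.36%. The SOX motif ACAATG stood in 179 windows (5.94%) against 207 of 2957 (Fisher's exact test, adjusted p = 0.145) and the ETS motif CCGGAAG at 0.066% against 0.135% (adjusted p = 0.489). In the windows 500 bp away the shares were 3.10% for the E-box, 4.94% for NFI, 6.69% for RUNX, 5.39% for TEAD, 1.84% for PBX-HOX, 6.97% for MEIS and 7.07% for SOX, above those of the 3014 for all of these but PBX-HOX. The GC box GGGCGG and the CArG box of serum response factor were below 1% in every class.

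Against peaks with 1 match only AP-1, the homeobox core and PBX-HOX (2.09% against 3.07%, adjusted p = 0.0216) passed Fisher's exact test. The PBX-HOX call was lost when matches sharing a base with a Bapx1 match were counted too (Fisher's exact test, adjusted p = 0.172), and the CArG box call when windows reached 100 bp from the summit (adjusted p = 0.379, a difference of -0.29 percentage points) or self-similar windows were left out (adjusted p = 0.0794, -0.40, against -0.45 as reported). Among peaks with a p of at most 1e-10, 3 of the 12 motifs passed against peaks without a match, which were AP-1, the homeobox core and the E-box, while the differences for TEAD (-2.73 percentage points) and PBX-HOX (-2.59) were as large as over all peaks (-2.50 and -2.17). The homeobox core difference was -7.96 percentage points against no match (from -4.67) and -7.18 against 1 match (from -4.77). At that limit the AP-1 and PBX-HOX calls against 1 match were lost (Fisher's exact test, adjusted p = 0.268 and 0.151), with differences of -1.14 and -1.32 percentage points against -1.93 and -0.98 over all peaks. The windows of the 3014 held 36.7% G and C bases, those with 1 match 35.4%, those without a match 39.6% and those 500 bp away 40.1%. The part of base composition in these shares was not tested.

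**Figure D5:**
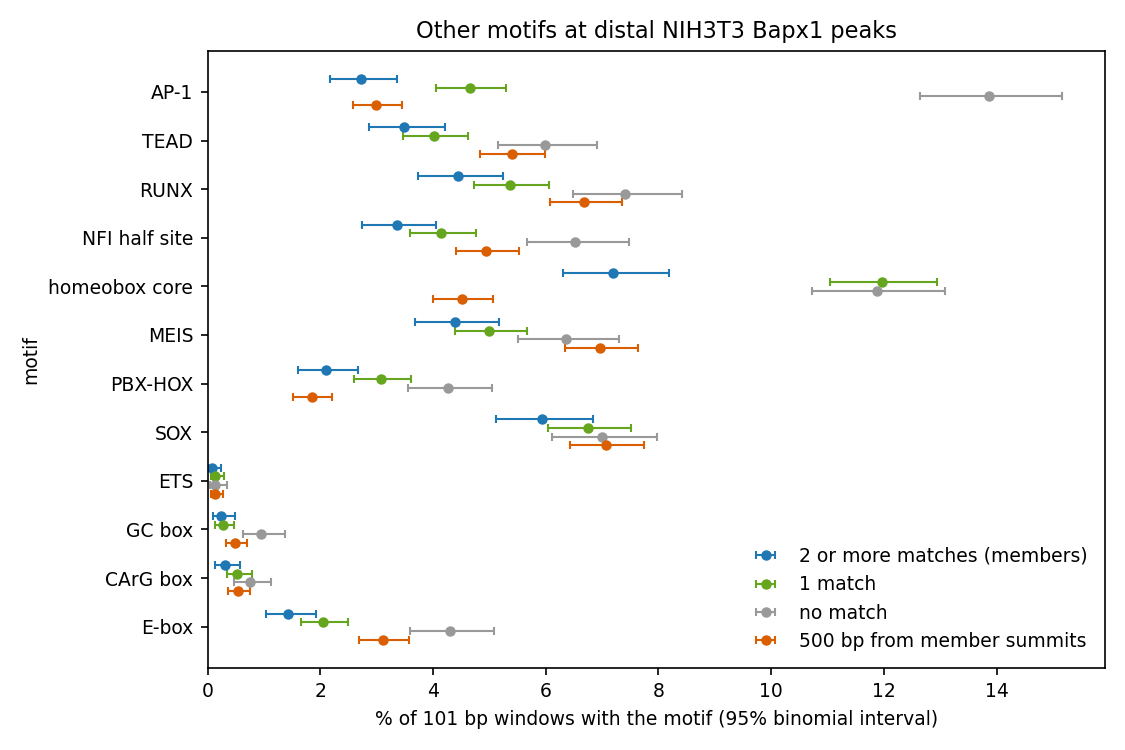
Share of windows (50 bp to either side of the centre) with each of 12 other motifs, with 95% exact binomial intervals, at the 3014 peaks, at distal peaks with 1 and with no Bapx1 match, and in windows 500 bp from the 3014 summits. The AP-1 share of 13.9% at peaks without a match is the widest gap from the 2.72% at the 3014 peaks.

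Most of the 3014 sites lay between genes. Of them 1968 (65.3%) were intergenic, 1027 (34.1%) were in an intron and 19 (0.63%) in an exon, and 35.3% of all distal peaks were inside a gene. The median distance to any transcript start was 80888 bp, and the farthest was 977272 bp away. The values just past the limit were 25020 bp near SNORA17, with 9 deposited tags, 25024 bp near Tcf4, with 13 tags, and 25027 bp near a U6 gene, with 11 tags. Just within it, and so not counted, peaks with 2 matches lay 24991 bp from Stmn2, with 11 tags, 24978 bp from Nebl, with 17, and 24975 bp from Ogfrl1, with 24. The sites ranged from 0.63 per Mb on chromosome 7 to 1.83 per Mb on chromosome 3, and per 100000 V5 control tags from 14.75 on chromosome 11 to 36.8 on chromosome 3. Another NIH3T3 peak lay within 10 kb of 19.4% of them, against 24.7% of distal peaks without a match, and another of the 3014 within 10 kb of 6.44%.

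The nearest protein-coding starts belonged to 1825 genes, of which 1192 had 1 site, 633 had 2 or more and 76 had 5 or more. Nearness does not show that a site acts on a gene. Pcdh7, a protocadherin, and Ptprd, a receptor phosphatase, had the most, with 11 sites each out of 33 and 55 distal peaks. Cntnap5a, a neurexin-family adhesion gene, had 10 of 20, and Lphn3, an adhesion receptor gene, had 9 of 23.

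The 8 gene lists covered pathways of skeleton and fibroblasts as well as neural guidance and vascular genes. For each list, the number of the 3014 sites whose nearest gene was on it is given beside the share of all distal peaks. The cartilage and sclerotome list took 27 sites (0.90%, against 0.69% of distal peaks) at 14 genes. Trps1, a GATA-type repressor in growth plate cartilage, had 5, and Sox5, which acts with Sox9 in chondrocytes, and Zfp521 had 4 each. The strongest lay 180287 bp upstream of Ctgf, a matricellular growth factor gene, with 50 V5-Bapx1 tags against 2 at a fold of 74.5. A site in an intron of Supt3h, 167772 bp upstream of the nearest protein-coding start of Runx2, the osteoblast regulator, had 35 against 4 at a fold of 49.0.

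A site near Sox5 had 27 against 5 at a fold of 25.9. Sites near the cartilage collagen genes Col9a1 and Col11a1 had 26 against 4 and 22 against 1. The site near Pax1, a sclerotome marker, had 19 against 0 at a fold of 25.8, and that near Tbx18, a somite factor, 15 against 0. In the embryo these sites had no more than 7 Bapx1 tags each, with 0 to 5 in wildtype.

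The neural guidance and vascular list took 50 sites (1.66%, against 1.33%) at 19 genes. Slit2, a secreted guidance cue, had 6, and a site near Sema5a, a semaphorin, had 70 V5-Bapx1 tags against 4 at a fold of 82.0. The BMP, GDF and TGF-beta list took 21 sites (0.70%, against 0.62%), with 3 each near the receptor Bmpr1b and the activin subunit Inhba. The Wnt list took 20 (0.66%, against 0.60%), with 3 each near the inhibitor Dkk1, the potentiator Rspo2 and the nuclear factor Tcf7l2.

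The matrix list took 15 (0.50%, against 0.61%), led by a site 30400 bp upstream of Col3a1, a fibrillar collagen of fibroblasts, with 38 tags against 2 at a fold of 55.9. The homeobox list took 11 (0.36%, against 0.40%) and the adhesion list 10 (0.33%, against 0.41%), of which 7 were near Lpp, a focal adhesion protein. The Hedgehog and FGF list took 2 (0.066%, against 0.133%), both near Gli3, a transcription factor of the Hedgehog pathway. For every list the share of all distal peaks, which include the 3014, lay within the 95% interval of the share of the 3014. The share of distal peaks without a match lay below it for the neural guidance and vascular list (1.01%, interval 1.23 to 2.18%). It lay above it for the matrix list (0.85%, interval 0.28 to 0.82%) and within it for the others. The shares without a match had intervals of their own, 0.69 to 1.45% for the neural guidance and vascular list and 0.55 to 1.25% for the matrix list. Both overlapped the interval of the 3014. No test was made on the lists.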

How the data were processed

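Members, motifs and gene lists were chosen with earlier results of these data known. Per the file headers, the authors called peaks with MACS (tag size 35, p cutoff 1e-05), on each ChIP library against its control, and deposited for each peak its tag count, −10·log10 of the p-value (a score), fold enrichment and FDR in percent. The deposited tag files give 35 bp positions in mm9, counted here once per position and strand. Per the study's methods, reads were mapped with the Genome Analyzer pipeline of Illumina, and only reads with a single place in the genome and at most 2 mismatches were kept. The Sox9 and IgG libraries were not used here. Each condition had 1 library.

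The genome was mm9 (NCBIM37) with GENCODE vM1, whereas RefSeq genes were used in the study. Matches were counted on both strands, overlaps included. Peak summits are the deposited start plus the offset, minus 1 bp. Tags were counted within 200 bp of summits and scaled to tags on chromosomes. Intervals are exact (Clopper-Pearson, 95%). Fisher's exact tests (scipy 1.17.1) were two-sided, adjusted by Benjamini-Hochberg over 2 comparisons for each embryo measure and over 12 motifs and 2 comparisons for motifs. Motif search and tests were tested on simulated data. Named regions were the 10 with the smallest p, Psapl1 from the 5 with the most matches, those overlapped in the embryo, 3 on each side of 25 kb and those nearest to listed genes. The spacing examples, and leaving self-similar windows out of the sets compared for bases beside the motif, were chosen after their values were seen. One named region is not reported here.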

Additional observations from a re-analysis of the deposited data

How the results depend on the processing

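The number of peaks fell from 3014 to 1082 with a deposited p of at most 1e-10 and to 301 with the G form alone, and stayed within 1.5 times of 3014 under the other alternatives tried (FDR of at most 5%, protein-coding starts, 50 kb, matches within 100 bp, non-overlapping matches, peak centres, the A form alone, and, chosen after seeing the data, no self-similar windows and no chromosome 9). The difference in embryo overlap from peaks without a match, 0.026 percentage points, turned to -0.058 at a p of at most 1e-10 in both lists, -0.093 without self-similar windows and -0.0093 without chromosome 9. The embryo tag ratio relative to peaks without a match, 1.001, was 0.999 when scaled to tags 2 to 5 kb away and 0.999 without peaks overlapped in the embryo, and it was highest, at 1.07 (Fisher's exact test, p = 0.0691), at a p of at most 1e-10. No alternative brought either past the threshold. The NIH3T3 tag ratio was 8.97 with all tags, 7.88 within the deposited limits and 8.25 scaled to tags 2 to 5 kb away. At a p of at most 1e-10 the motif count fell from 10 to 3, with differences from no match that stayed negative for TEAD (-2.73), PBX-HOX (-2.59), RUNX (-2.47), NFI (-2.12, from -3.18), MEIS (-1.11, from -1.98) and the GC box (-0.79), and the differences turned to 0.48 percentage points for RUNX and 0.083 for the GC box against 1 match, and to 0.98 for SOX and 0.034 for the CArG box against no match. At that limit the share of 10 and 11 bp spacings was 22.2%. The number of peaks was also smaller at that limit, and the cause of these changes was not tested.

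Alternatives with repeat masking were not run, since the genome sequence used carried no repeat marks. No paired analysis was possible because each condition had a single library. The depth limits single embryo sites, with a median of 5 tags.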
